A study of Mus musculus with 4 samples.

Results

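The lysosomal cathepsins are the proteases that digest proteins inside lysosomes, and 10 of their genes were followed here: Ctsa, Ctsb, Ctsc, Ctsd, Ctsf, Ctsh, Ctsk, Ctsl, Ctss and Ctsz. They were taken by name from 24530 genes and unnamed transcripts, and for each gene the RefSeq transcript with the highest mean raw count over the 4 libraries was kept. The transcripts were thus chosen by their mean raw count, so levels are given as a description; the rule did not use the difference between the groups. That Ctsc and Ctsk differ between the groups was known from an earlier look at the same data.

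The data were poly(A) RNA sequencing libraries of RAW 264.7 cells, a mouse macrophage line, between passages 3 and 6, grown at 5.5 mmol/L glucose. In 2 libraries the cells stably carried the empty expression plasmid pcDNA 3.1(+), and in 2 they stably expressed Dnm3os, a long noncoding RNA that the series title describes as induced by diabetes. The labels do not say whether a stable line was 1 clone or a pool, nor whether the 2 libraries in each group are separate cultures. The p-values therefore set each difference only against the spread between these libraries, pooled in part over genes. That spread may be technical. The comparison asks how the transcripts of these macrophages differ when they carry Dnm3os.

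Cathepsins are made as inactive precursors, tagged with mannose 6-phosphate, delivered to the acidic lysosome and activated there by cleavage. Most are cysteine proteases of the papain family (B, C, F, H, K, L, S and Z), cathepsin D is an aspartic protease, and cathepsin A is a serine carboxypeptidase. Macrophages use them to degrade ingested material, to process antigens and, when secreted, to cut extracellular matrix.

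The libraries held between 48480628 and 65610942 counts over all transcripts, and between 29416272 and 39769640 with 1 transcript per gene. Dnm3os itself was counted 208 and 260 times where it was expressed and 0 times with the empty vector, as labelled. Of 7 macrophage markers 6 were tested and all 6 were called: Lyz2 (log2 fold change 0.15), Csf1r (0.27), Itgam (1.01) and Fcgr1 (0.75) rose, and Adgre1 (-0.30) and Cd68 (-0.11) fell. Over all genes tested 12.3% were called, and 20.4% of those at mean levels of 300 CPM or more, where Lyz2, Csf1r and Cd68 lie. Cd68 no longer passed when empty vector library 1 or 1 of the Dnm3os libraries was left out (adjusted p from 0.0639 to 0.115 by edgeR). The seventh, Mertk, had at most 1 count per library. The markers of mast cells, fibroblasts, T cells and B cells summed to at most 0.272 CPM (counts scaled to a common library size) in any library. Those of neutrophils summed to 4.27 to 4.54 CPM in the empty vector and 5.19 to 5.94 CPM in the Dnm3os libraries, nearly all of it S100a8, with 6 of 8 at 0.

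The sequences just before the start of 4 of the genes are printed: Ctsc and Ctsk, whose counts differed most between the groups, Ctss, which lies next to Ctsk on chromosome 3, and Ctsd, whose counts barely differed. Each is the 250 bases before the start in the RefSeq promoter table of build GRCm38.p6, read 5′ to 3′ on the gene's strand. Capitals mark CACGTG, the E-box bound by MiT/TFE factors such as Tfeb, GAGGAA or its reverse complement TTCCTC, the core letters of PU.1 sites, and TATAAA or its reverse complement TTTATA.
Ctsc, chr7:88277835-88278084, plus strand: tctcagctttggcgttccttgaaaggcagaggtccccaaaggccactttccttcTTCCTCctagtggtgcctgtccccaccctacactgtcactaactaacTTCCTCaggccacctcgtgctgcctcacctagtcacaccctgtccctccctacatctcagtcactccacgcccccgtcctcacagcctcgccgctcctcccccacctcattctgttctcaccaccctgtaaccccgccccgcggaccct
Ctsk, chr3:95498960-95499209, plus strand: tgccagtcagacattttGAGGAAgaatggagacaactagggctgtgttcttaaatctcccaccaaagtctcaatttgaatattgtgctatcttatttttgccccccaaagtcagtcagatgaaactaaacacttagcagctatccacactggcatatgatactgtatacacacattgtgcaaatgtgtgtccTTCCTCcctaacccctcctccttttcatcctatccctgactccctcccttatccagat
Ctss, chr3:95526536-95526785, plus strand: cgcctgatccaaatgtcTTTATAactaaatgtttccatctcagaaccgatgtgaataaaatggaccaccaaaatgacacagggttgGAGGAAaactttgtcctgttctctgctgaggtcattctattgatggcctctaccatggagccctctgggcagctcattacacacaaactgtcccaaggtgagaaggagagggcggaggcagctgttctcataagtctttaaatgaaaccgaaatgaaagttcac
Ctsd, chr7:142387828-142388077, minus strand: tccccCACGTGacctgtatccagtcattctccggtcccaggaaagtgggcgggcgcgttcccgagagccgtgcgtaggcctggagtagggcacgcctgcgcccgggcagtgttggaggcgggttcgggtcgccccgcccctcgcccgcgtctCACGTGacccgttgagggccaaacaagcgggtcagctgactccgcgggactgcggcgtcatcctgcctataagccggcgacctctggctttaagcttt

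The table held 9 promoters for 8 of the 10 genes (none for Ctsb and Ctsh). CACGTG was found in 4 of the 9: in Ctsd 245 and 98 bases before the start, in Ctsf 79, in Ctsl 236 and in 1 of the 2 Ctsa promoters 12 bases before. The same 250 bases held it in 6.02% of all 32851 promoters listed. Neither Ctsc nor Ctsk had it in this window. GAGGAA, searched on both strands, was in 3 of 9: in Ctsc 196 and 149 bases before the start, in Ctsk 233 and 58, and in Ctss 164, against 23.3% of all promoters. TATAAA was in 1 of 9, Ctss, against 12.4% of all, and TGANTCA, the letters of AP-1 sites, was in 0 of 9, against 6.75%. No motif match overlaps another in the 4 printed sequences, and a match describes the letters only.

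In the Dnm3os libraries, 4 of the 9 tested cathepsin genes rose (Ctsc, Ctsf, Ctsl and Ctsz), 1 fell (Ctsk), and Ctsa, Ctsb, Ctsd and Ctss did not pass the threshold of 0.05 on the adjusted p of edgeR's quasi-likelihood test. Ctsh had too few counts to test, 0 in 3 libraries and 2 in Dnm3os library 1. Over all 13172 genes tested, 12.3% were called, 6.51% higher and 5.75% lower. DESeq2 also called 4 of the 9 higher and 1 lower, against 5.82% of all genes. At mean levels of 300 CPM or more (564 genes), where Ctsa, Ctsb, Ctsd, Ctsl, Ctss and Ctsz lie, 20.4% were called. The median log2 fold change of the 9 was 0.01, and that of all genes tested was 0.00. The groups did not overlap for 7 of the 9, where 51.2% of all genes tested did not. In 7 of the 9 the difference was under 2-fold.

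**Figure D1:**
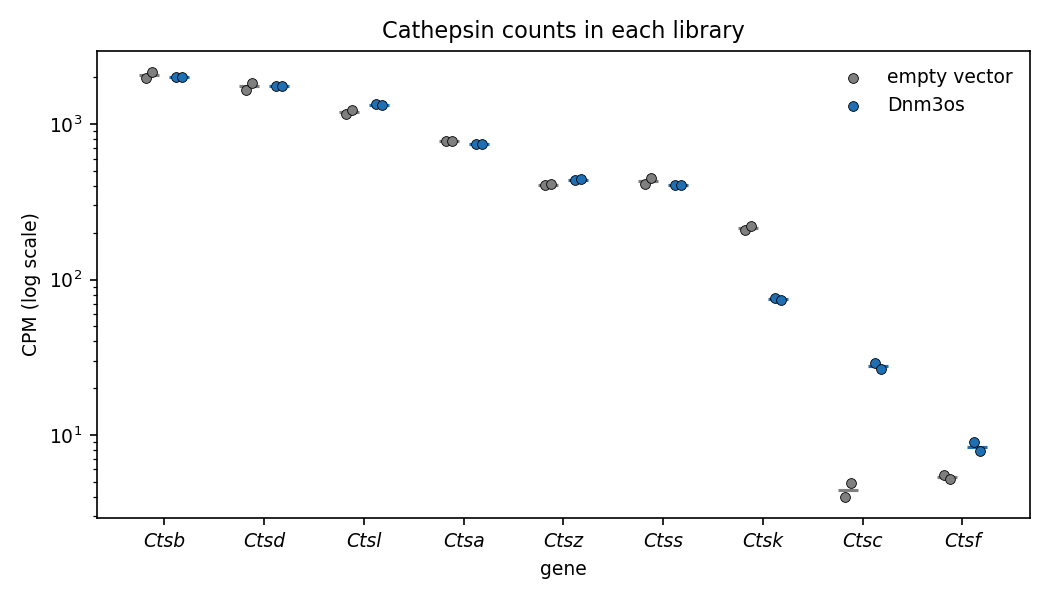
CPM (log scale) of 9 cathepsin genes in each library; points are libraries, grey for empty vector and blue for Dnm3os, and bars are group means of 2. The points of the groups lie far apart for Ctsk (207 and 221 against 75.9 and 74.3 CPM) and Ctsc (4.01 and 4.90 against 29.2 and 26.7 CPM); values are not corrected for transcript length, so they compare libraries and not genes.

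Among the enzymes that trim peptides from their ends, Ctsc stood out. It encodes cathepsin C, a dipeptidyl peptidase that removes pairs of residues from the amino end and activates the granule serine proteases of immune cells. It was counted 160 and 173 times with the empty vector and 860 and 916 times with Dnm3os, or 4.01, 4.90, 29.2 and 26.7 CPM. Both Dnm3os libraries were well above both empty vector libraries. The log2 fold change was 2.65 ± 0.09 (SE), a 6.29-fold rise (adjusted p = 4.16e-15 by edgeR). Under the 15 alternative settings it ranged from 2.51 to 2.80 and was called in every one. Among 681 called rises at mean levels of 5 CPM or more, this rise ranked 2 in size.

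Ctsc has a second RefSeq transcript, NM_001311790, beside the kept NM_009982, and reads on shared exons are counted for both. Its CPM were 2.23, 2.04, 9.95 and 9.01 in the same order of libraries, so it was also higher in both Dnm3os libraries, with a ratio of group means of 4.44. Its counts were 55.6% and 41.6% of those of NM_009982 in the empty vector libraries and 34.1% and 33.7% in the Dnm3os libraries. Shared reads mean that these shares do not measure isoform use, and they were not tested.

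Ctsz encodes cathepsin Z, also called cathepsin X, a carboxypeptidase that removes single residues from the other end. Its values were 406 and 409 CPM with the empty vector and 437 and 440.1 CPM with Dnm3os. The groups did not overlap, and the rise was small, at 0.11 ± 0.03 on the log2 scale (adjusted p = 0.0165 by edgeR). Leaving out empty vector library 1 ended the call (adjusted p = 0.144 by edgeR), as did leaving out Dnm3os library 1 (0.111) or 2 (0.139), and over all alternatives the adjusted p ran from 0.00572 to 0.144. The gene overlaps Nelfcd in the RefSeq annotation, and since the strand setting of the counting is not given, reads of the 2 genes cannot be told apart where they overlap. Nelfcd had 54.5 ± 1.96 and 53.5 ± 0.360 CPM (SD, n = 2 per group). Ctsh, the aminopeptidase cathepsin H, was close to undetected, as its counts above show.

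The cysteine endopeptidases, which cut inside proteins, moved in both directions. Ctsk encodes cathepsin K, the collagen-degrading protease best known from bone-resorbing osteoclasts. It had 8271 and 7805 counts with the empty vector and 2234 and 2549 with Dnm3os, or 207, 221, 75.9 and 74.3 CPM. Both Dnm3os libraries were far below both empty vector libraries. Ctsk fell by 1.51 ± 0.04 on the log2 scale, which is 2.85-fold (adjusted p = 4.00e-18 by edgeR), with alternatives from -1.56 to -1.47, all called. Among 664 called falls at mean levels of 5 CPM or more, this fall ranked 4 in size.

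Ctss, the next protein-coding gene along chromosome 3, encodes cathepsin S, which trims the invariant chain from class II molecules in antigen-presenting cells. Its values were 412 and 449 CPM with the empty vector and 407 and 405 CPM with Dnm3os, a log2 difference of -0.08 ± 0.04 that was not called (adjusted p = 0.158 by edgeR). Without empty vector library 1 the difference was called, at -0.15 (adjusted p = 0.00534 by edgeR), and over all alternatives the adjusted p ran from 0.00534 to 0.86. Without empty vector library 2 the difference was -0.02. The CPM ratio of Ctsk to Ctss was 0.504 and 0.492 with the empty vector and 0.187 and 0.184 with Dnm3os. The 2 RefSeq transcripts of Ctss held nearly the same reads, 16424 and 16423 counts in empty vector library 1. Ctss overlaps the pseudogene Hmgb1-ps5 in the annotation, and the part of overlapping reads was not tested.

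Ctsl, cathepsin L, a strong endopeptidase of the lysosome, had 1167 and 1239.5 CPM with the empty vector and 1337 and 1327 CPM with Dnm3os. The groups did not overlap, and the rise was 0.15 ± 0.03 on the log2 scale (adjusted p = 0.000615 by edgeR), called under every alternative with values from 0.10 to 0.19. Ctsf, the related but far less expressed cathepsin F, had counts of 219 and 184 with the empty vector and 264 and 270 with Dnm3os. These are 5.49, 5.21, 8.97 and 7.87 CPM, again without overlap. It rose by 0.65 ± 0.11 on the log2 scale, or 1.57-fold (adjusted p = 0.00023 by edgeR), and was called under every alternative, with values from 0.55 to 0.74.

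Ctsb encodes cathepsin B, which cuts inside proteins and also removes dipeptides from the carboxyl end. Its values were 1985 and 2164 CPM with the empty vector and 2009 and 2004 CPM with Dnm3os, so both Dnm3os libraries lay between the empty vector libraries. The log2 difference of -0.05 ± 0.04 was not called (adjusted p = 0.566 by edgeR). Without empty vector library 1 it was called lower at -0.11 (adjusted p = 0.000909 by edgeR), and without empty vector library 2 it was 0.02 (adjusted p = 0.851 by edgeR); these are the ends of the range over alternatives. Ctsb overlaps Fdft1 in the annotation, which had 60.4 ± 0.0528 and 65.6 ± 2.94 CPM (SD, n = 2 per group).

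**Figure D2:**
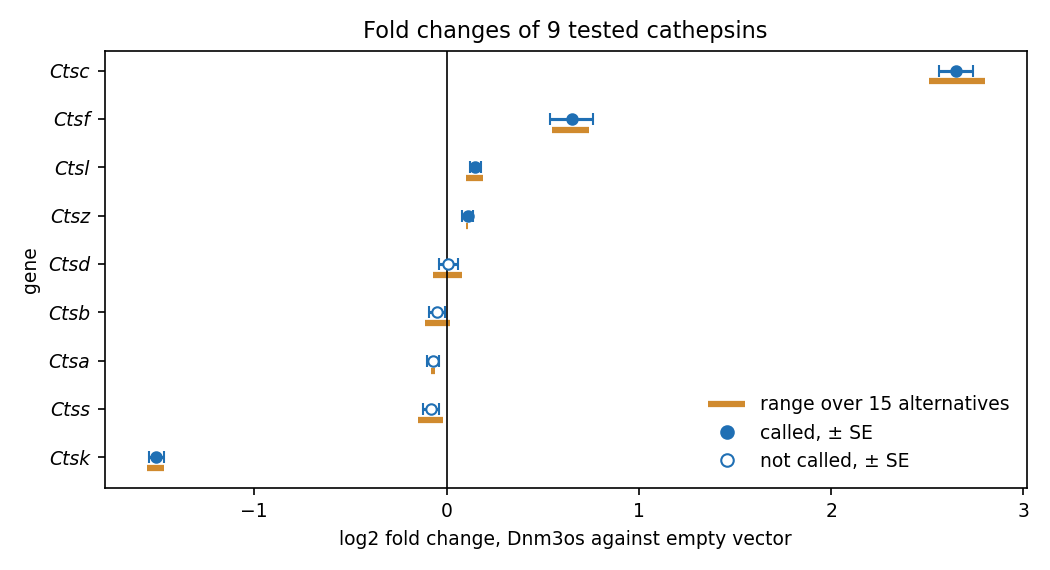
Log2 fold change of each tested cathepsin gene in Dnm3os against empty vector libraries, as points with SE (filled where called by edgeR, open where not), above an orange line for the range over 15 alternative settings. Ctsc (2.65), Ctsf (0.65) and Ctsk (-1.51) lie away from 0 over their whole range, and the ranges of Ctsd and Ctsb cross 0.

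Ctsd encodes cathepsin D, the main aspartic protease of lysosomes. Its values were 1664 and 1835 CPM with the empty vector and 1750.0 and 1767 CPM with Dnm3os, again between the empty vector libraries. The log2 difference was 0.01 ± 0.05 (adjusted p = 0.963 by edgeR). It was -0.07 without empty vector library 1 (adjusted p = 0.147 by edgeR) and was called higher at 0.08 without empty vector library 2 (adjusted p = 0.0474 by edgeR), and over all alternatives the adjusted p ran from 0.0474 to 0.998.

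Ctsa encodes cathepsin A, or protective protein, which also holds the sialidase Neu1 and the galactosidase Glb1 in a stable complex. Its values were 774 and 784 CPM with the empty vector and 743 and 746 CPM with Dnm3os. The groups did not overlap, but the log2 difference of -0.07 ± 0.03 was not called (adjusted p = 0.114 by edgeR, over alternatives from 0.0793 to 0.364). Its second transcript gave nearly the same values, with a log2 ratio of -0.07. Ctsa overlaps Neurl2 and Pltp in the annotation. Pltp had 237 ± 0.417 CPM with the empty vector and 214 ± 0.184 CPM with Dnm3os (SD, n = 2 per group). It was called lower, at -0.15 ± 0.03 on the log2 scale (adjusted p = 0.00219 by edgeR). The part of overlapping reads in the values of Ctsa was not tested.

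Empty vector library 2 was above library 1 in 8 of the 9 tested cathepsins, with Ctsf the exception, and the empty vector libraries were further apart than the Dnm3os libraries in 7 of the 9, Ctsc and Ctsf being the exceptions. The matching shares over all genes were not taken, so neither count can be read as particular to the cathepsins. The calls that changed with 1 empty vector library left out were those of Ctsb, Ctsd, Ctss and Ctsz.

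Per length of transcript (CPM per kilobase, with lengths of the matched GENCODE M21 transcripts), Ctsd was the most abundant with the empty vector, at 822 ± 56.8 (SD, n = 2). It was followed by Ctsl (610.5 ± 26.0), Ctsb (437 ± 26.8), Ctss (318 ± 19.5), Ctsz (283 ± 1.46), Ctsa (214 ± 1.88) and Ctsk (142 ± 6.31), and at a distance by Ctsf (2.70 ± 0.101) and Ctsc (1.79 ± 0.251). With Dnm3os the order was the same except in 2 places. Ctsz, at 304 ± 1.43, stood above Ctss, at 299.5 ± 1.01, and Ctsc, at 11.2 ± 0.710, stood above Ctsf, at 4.25 ± 0.391. Libraries of genes next to each other in the order overlapped in 0 cases in either group. Some places depend on the transcript. The other transcript of Ctsa, with nearly the same reads but 2534 instead of 3646 bases, would give 304 ± 2.27 and 290 ± 0.105, above Ctsz with the empty vector but still below Ctss and Ctsz with Dnm3os. That of Ctsc would give 0.663 ± 0.0426 and 2.94 ± 0.207, below Ctsf in both groups.

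Ctsk made up 5.02% and 4.99% of the summed CPM per kilobase of the 10 genes with the empty vector and 1.79% and 1.76% with Dnm3os. Ctsc made up 0.0589% and 0.0670% against 0.419% and 0.383% (with its other transcript 0.0254% and 0.0216% against 0.111% and 0.1003%), and Ctsl 21.7% and 21.5% against 24.2% and 24.1%. Ctsd held 28.6% and 29.5% against 29.4% and 29.7%. The 10 genes together had 6624 and 7111 CPM with the empty vector and 6798 and 6797 CPM with Dnm3os, so both Dnm3os libraries lay between the empty vector libraries. The summed cathepsin level therefore overlapped between the groups. The levels of 7 of the 9 tested genes, Ctsc and Ctsk among them, did not, and neither did those of 51.2% of all genes tested.

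**Figure D3:**
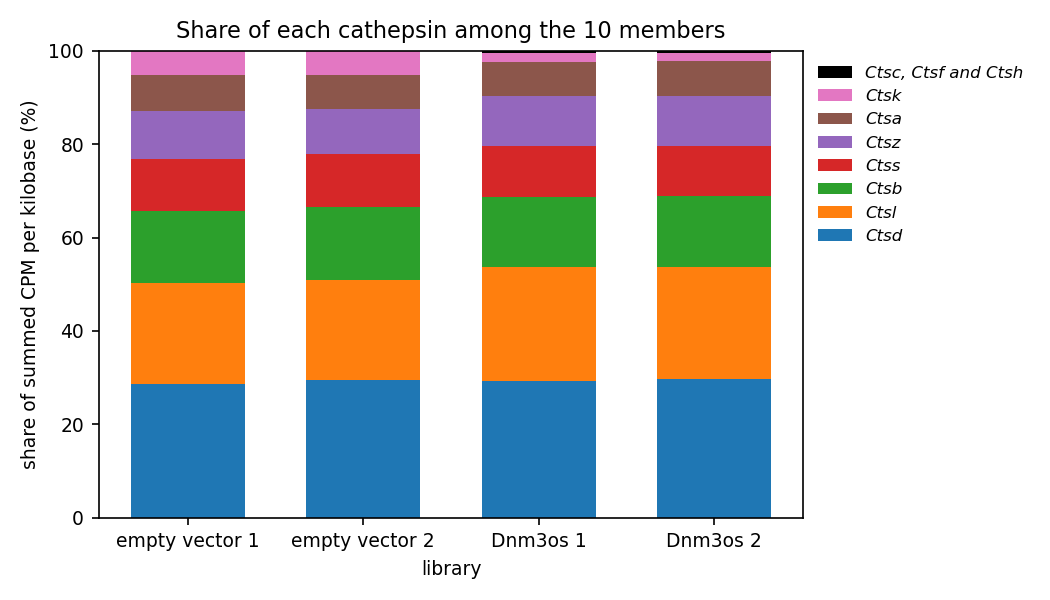
Share (%) of each gene in the summed CPM per kilobase of the 10 cathepsins, as stacked bars for the 4 libraries, with Ctsc, Ctsf and Ctsh joined on top. The Ctsk band narrows from 5.02% and 4.99% to 1.79% and 1.76%, and the bands of Ctsd, Ctsl and Ctsb hold most of each bar.

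Of 13 further cathepsin genes, 9 had 0 counts in every library: Ctsg, Ctsj, Ctsm, Ctsq, Ctsr, Cts3, Cts6, Cts7 and Ctsll3. Most of these belong to a placental cluster of Ctsl relatives on chromosome 13. Ctse, an aspartic protease of the endosome, rose from 14 and 15 counts to 84 and 62, or from 0.388 ± 0.0519 to 2.33 ± 0.739 CPM (SD, n = 2 per group). Its log2 fold change was 2.57 ± 0.30 (adjusted p = 2.10e-06 by edgeR), called under every alternative with values from 2.22 to 2.88. Ctso had 18.2 and 16.0 CPM against 14.6 and 14.8 CPM and was not called (-0.22 ± 0.08; adjusted p = 0.0749 by edgeR, over alternatives from 0.0237 to 0.515). It was called at -0.30 without empty vector library 2 (adjusted p = 0.0237 by edgeR) and with no filter on low counts (0.0445), and was -0.13 without empty vector library 1. Cts8, a member of the placental cluster whose reads may be shared with relatives, differed by -0.02 ± 0.18. Ctsw, known from cytotoxic lymphocytes, had 10 and 8 counts against 1 and 4 and was not tested.

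Among 15 genes that process and deliver cathepsins, all tested, there were 0 called higher and 2 called lower, with a median of -0.06 on the log2 scale. The share called, 2 of 15, was near the 12.3% of all genes. Gnptab, a subunit of the enzyme that starts the mannose 6-phosphate tag, fell by 0.13 ± 0.04 on the log2 scale (adjusted p = 0.0145 by edgeR), a call lost without Dnm3os library 2 (-0.10; adjusted p = 0.232 by edgeR). Igf2r, the large receptor for that tag, fell by 0.14 ± 0.04 (adjusted p = 0.0388 by edgeR), which did not pass when empty vector library 2 (-0.07) or 1 of the Dnm3os libraries was left out (adjusted p from 0.134 to 0.321 by edgeR); without empty vector library 1 it was -0.22. Before adjustment, 0 were higher and 6 lower at p under 0.05 by edgeR. The share of all genes at this unadjusted threshold was not taken, so the count shows no direction of the list. DESeq2 called 0 in either direction, and limma-voom 0 higher and 1 lower. Over all 13172 genes tested, DESeq2 called 5.82%, and limma-voom called 720 higher and 614 lower. Lgmn, legumain, which cleaves cathepsin precursors, was at 350.4 ± 10.2 and 345 ± 2.95 CPM (SD, n = 2 per group). Neu1 and Glb1, the partners of Ctsa, had log2 differences of 0.03 ± 0.04 and -0.12 ± 0.04, neither called.

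Other lysosomal hydrolases, 27 genes for sugars, lipids, nucleic acids and proteins, were all tested: 0 rose, 3 fell and 24 did not pass, with a median log2 fold change of -0.05. Those that fell were Tpp1, a tripeptidyl peptidase (-0.14 ± 0.03), Manba, the beta-mannosidase (-0.20 ± 0.05), and Gla, the alpha-galactosidase (-0.20 ± 0.06). All 3 calls were lost without Dnm3os library 2 (adjusted p of 0.107, 0.229 and 0.166 by edgeR), and that of Gla also without Dnm3os library 1 (0.108) or empty vector library 2 (0.24). Manba was -0.12 without Dnm3os library 2, and Gla was -0.13 without empty vector library 2. Before adjustment, 1 was higher and 6 lower at p under 0.05 by edgeR. The share of all genes at this threshold was not taken, so the count shows no direction of the list. DESeq2 called 0 higher and 1 lower, losing Manba (adjusted p = 0.0583) and Gla (0.151), and limma-voom called 0 higher and 3 lower. Over all 13172 genes tested, DESeq2 called 5.82%, and limma-voom called 720 higher and 614 lower. The share called in this list, 3 of 27, was near the 12.3% of all genes.

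**Figure D4:**
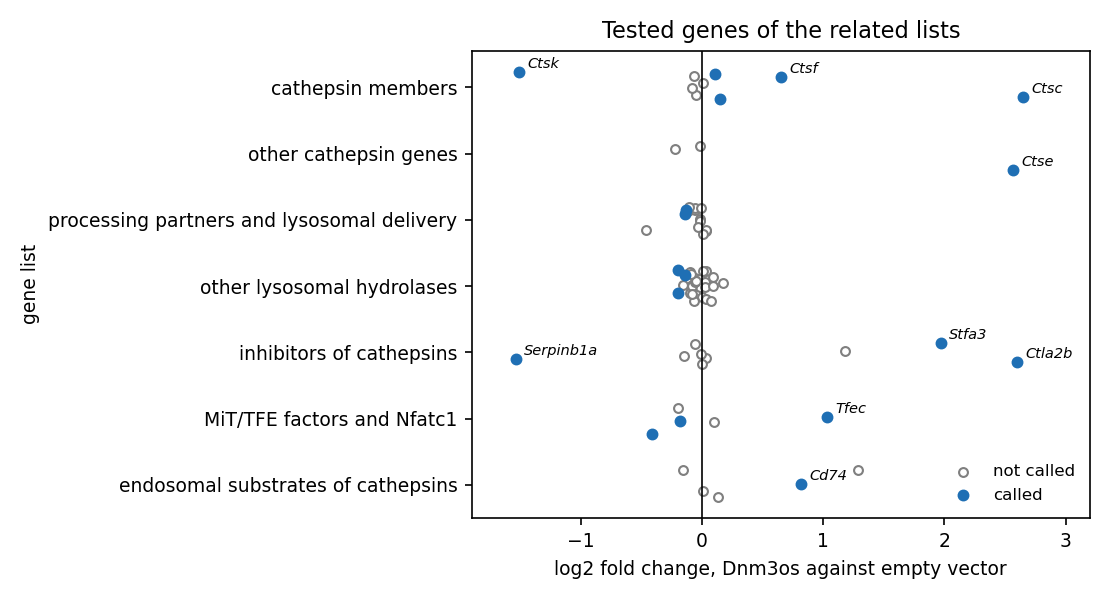
Log2 fold change of each tested gene in 7 lists, one list per row, with called genes in blue and others open; vertical scatter within a row only separates points. Most lysosomal hydrolases and delivery genes lie close to 0 (medians of -0.05 and -0.06), and Ctsc (2.65), Ctse (2.57) and Ctsk (-1.51) lie far from it. Cst7, Stfa3, Ctla2b and Tlr9 passed the filter on low counts only through the Dnm3os libraries.

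Among the inhibitors of cathepsins and related proteases, 15 of 16 listed genes were found and 9 had enough counts to test. Of these 9, Cst7, Stfa3 and Ctla2b passed the filter on low counts (0.287 CPM in 2 libraries) only through the Dnm3os libraries, so they had to be higher there, and counts over the tested genes show no direction of the list. The abundant cystatin Cst3 had 587 ± 5.88 and 563 ± 8.70 CPM and Cstb, a cytosolic stefin, 148 ± 2.53 and 151 ± 3.75 CPM (SD, n = 2 per group), neither called. The 3 genes called, Serpinb1a lower and Stfa3 and Ctla2b higher, had few counts. Over all genes tested 12.3% were called. Serpinb1a, a serpin of granule serine proteases, had 53 and 37 counts against 11 and 15 and fell by 1.54 ± 0.33 on the log2 scale (adjusted p = 0.00226 by edgeR). Stfa3, a stefin, had 7 and 4 counts against 19 and 18 (log2 difference 1.97 ± 0.49), and Ctla2b, a relative of cathepsin propeptides, had 6 and 0 against 10 and 22 (2.60 ± 0.71). With a filter of 1 CPM in 2 libraries 0 inhibitors were called higher, as neither gene was tested. Both belong to families of similar genes, so their reads are uncertain. Stfa3 was not called when empty vector library 2 or 1 of the Dnm3os libraries was left out (adjusted p from 0.0666 to 0.118 by edgeR), nor Ctla2b without empty vector library 2 (1.71) or Dnm3os library 2 (2.05; adjusted p of 0.117 and 0.323 by edgeR). Without empty vector library 1 the only empty vector library left had 0 counts of Ctla2b. DESeq2 called 0 of the list in either direction, where edgeR had 3 higher and 2 lower at p under 0.05 before adjustment. Those 3 were Cst7, Stfa3 and Ctla2b, which had to be higher because of the filter, so this count shows no direction. The share of all genes at this unadjusted threshold was not taken.

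The transcription factors known to act on lysosomal genes or on Ctsk did not move one way. Of the 5, 1 was called higher and 2 lower, where 12.3% of all genes tested were called. Nfatc1, the factor of osteoclast formation that acts on Ctsk, was at 245 and 226 CPM with the empty vector and 177 and 178 CPM with Dnm3os, without overlap. It fell by 0.41 ± 0.04 on the log2 scale (adjusted p = 6.93e-08 by edgeR) and was called under every alternative. Mitf fell by 0.18 ± 0.04 (adjusted p = 0.00686 by edgeR). The difference stayed negative but its call was lost by DESeq2 (-0.18, adjusted p = 0.0795) and without Dnm3os library 1 (-0.16). Tfec, at 38 and 32 counts against 58 and 63, rose by 1.03 ± 0.23 (adjusted p = 0.00428 by edgeR), and was also lost by DESeq2 and without Dnm3os library 1 (adjusted p = 0.0596 by edgeR). Tfeb (-0.20 ± 0.08) and Tfe3 (0.10 ± 0.04) were not called.

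Markers of osteoclasts, the cells in which Ctsk is best known, moved both ways beside it. Of 8 listed, 6 were tested, with 2 called higher, 3 lower and 1 in neither direction, where 12.3% of all genes tested were called. The summed level of the 8 was 203 and 213 CPM with the empty vector and 200.4 and 195 CPM with Dnm3os. Ocstamp, a gene of cell fusion, had 15.3 and 14.8 CPM with the empty vector and 6.86 and 8.16 CPM with Dnm3os and fell (adjusted p = 5.28e-08 by edgeR). Dcstamp, its relative (log2 fold change -0.25 ± 0.04), and the proton pump subunit Atp6v0d2 (-0.35 ± 0.05) fell as well. The gelatinase Mmp9 rose (0.48 ± 0.05), as did the acid phosphatase Acp5 (0.20 ± 0.06), whose call was lost without any 1 of the 4 libraries (adjusted p from 0.0891 to 0.311 by edgeR), by DESeq2 (0.339) and by limma-voom (0.0595). Both of those tools called 1 of the list higher and 3 lower. Over all 13172 genes tested, DESeq2 called 5.82%, and limma-voom called 720 higher and 614 lower. Calcr, the calcitonin receptor that defines mature osteoclasts, was at 0 in all libraries, and Oscar had at most 4 counts. Of 6 dendritic cell markers, Itgax rose (0.79 ± 0.10), Xcr1 did not pass and the others had fewer than 10 counts in every library. In bulk RNA a change in the cells present and a change in RNA per cell cannot be told apart, and the part of these markers in the values of Ctsk and Ctsc was not tested.

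The genes whose values over the 4 libraries lay closest to those of Ctsc, by Euclidean distance of gene-centred log2(CPM + 0.1) among 9977 genes with a mean of at least 5 CPM, were Spink5 (distance 0.42), Nos2 (0.48) and Ly86 (0.67). Their log2 fold changes were 2.22, 2.21 and 2.40. Those closest to Ctsk were Tacr1 (0.12), Eng (0.19) and Flnc (0.31), with log2 fold changes of -1.48, -1.59 and -1.23. With 4 libraries in 2 groups, this distance mostly reads the difference between the groups.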

How the data were processed

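Poly(A) RNA of 4 RAW 264.7 libraries, 2 with the empty vector and 2 with Dnm3os, was sequenced, per the labels. The submitters' processing notes name TopHat, Bowtie2, DESeq2 and the build mm9, without versions or roles; the read counter, its annotation and its strand setting are not stated there. Per the file headers, each deposited file holds raw read counts for 35786 RefSeq transcripts and a normalized column, a signal equal to the raw counts times 1 constant per library, used here only for another scaling.

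Gene symbols came from RefSeq for 35499 transcripts and from GENCODE M21 for 178; 109 unnamed ones, with 0.246 to 0.276% of the counts, stayed as separate features, and the 45S ribosomal RNA (0.044 to 0.081%) was left out. Keeping 1 transcript per gene left out 39.4% of counts; how many of these are reads also counted for the kept isoform was not measured. Both tables are of a later build, so they gave names, neighbours and overlaps but no gene coordinates. After filterByExpr and TMM scaling, genes were tested with edgeR 4.0.16 (glmQLFit, robust, and glmQLFTest) in R 4.3.3, two-sided, with Benjamini-Hochberg adjustment over 13172 genes and a threshold of 0.05; the procedure was tested on simulated data. Log2 fold changes are those of the fit, and SE is the absolute value over the square root of F. CPM use TMM-scaled library sizes.

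Alternatives were other scalings, DESeq2 1.42.0, limma-voom (3.58.1), other filters, a replicate block, summed isoforms and each library left out. Summing isoforms counts reads on shared exons more than once. Leaving a library out assumes that the lone library varies like the others. A crossed block and levels per length with the other transcripts of Ctsa and Ctsc were added after seeing the data. Named genes were all cathepsin genes, Dnm3os, the called members of each list, and the 3 genes closest in pattern to Ctsc and to Ctsk; others (uncalled list members and overlapping genes) were named after their values were seen. Members and lists were chosen with earlier results of these data known.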

Additional observations from a re-analysis of the deposited data

How the results depend on the processing

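Across 15 alternatives, 3 to 5 cathepsins were called higher and 1 to 3 lower, against 4 and 1; with each library left out in turn the ranges were 3 to 5 and 1 to 3, the 3 lower being without empty vector library 1. Ctsc, Ctsf, Ctsk and Ctsl kept direction and call under all 15. With single libraries left out, Ctsb ran from -0.11 to 0.02, Ctsd from -0.07 to 0.08 and Cts8 from -0.20 to 0.12, which changed their sign. Over all genes, 858 were called higher and 758 lower, DESeq2 called 404 and 362, and leaving out a library gave 465 to 808 and 396 to 786; without Dnm3os library 1 there were 492 and 455, and without Dnm3os library 2, 465 and 396. With a replicate block, 868 and 782 genes and the same numbers of cathepsins, 4 and 1, were called; replicate numbers are shared by label only, and deviations of same-numbered libraries correlated at -0.160 over 10634 genes, which are not independent. With crossed numbers 1054 and 945 genes were called. With 2 libraries per group, small differences such as those of Ctsz and Ctss turn on single libraries. Ctsh, with at most 2 counts in a library, had too few counts to assess a difference between the groups.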

Other observations

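Transcripts for some proteins that cathepsins cut in endosomes, and for an escort protein, were also counted. Cd74, the invariant chain that Ctss trims, had 58.8 and 62.3 CPM with the empty vector and 109 and 104 CPM with Dnm3os, a rise of 0.82 ± 0.04 on the log2 scale (adjusted p = 1.50e-12 by edgeR) that was called under every alternative. The nucleic acid sensors Tlr3 (-0.16 ± 0.07), Tlr7 (0.13 ± 0.04) and Tlr9 (1.29 ± 0.57, from 5 and 5 counts to 10 and 11), which cathepsins cleave, and their escort Unc93b1 (0.01 ± 0.03) were not called. All 5 were tested, Tlr9 only because it passed the filter on low counts through the Dnm3os libraries. Of the 5, 1 was called higher and 0 lower, where 12.3% of all genes tested were called. Before adjustment, 3 of the 5 (Cd74, Tlr7 and Tlr9) were higher and 1 (Tlr3) lower at p under 0.05 by edgeR. Of these, Tlr9 had to be higher because of the filter, so the count shows no direction of the list. The share of all genes at this unadjusted threshold was not taken. DESeq2 and limma-voom each called 1 of the 5 higher and 0 lower. Over all 13172 genes tested, DESeq2 called 5.82%, and limma-voom called 720 higher and 614 lower. With library totals only, with no filter, with either replicate block or without empty vector library 2, the number called higher was 2.

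The granule serine proteases that cathepsin C activates were nearly absent. Of Elane, Prtn3, Gzma, Gzmb, Cma1, Tpsab1 and Tpsb2, 5 had 0 counts in every library, Elane had 1 count in empty vector library 2 and Prtn3 had 2 in empty vector library 1, and 0 were tested.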
